A study of Mus musculus with 19 samples.

Results

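Activated CD8 T cells that the authors had not placed in a dividing cluster were compared between growing and regressing A223 tumours. They were chosen by cluster name: of the 24542 cells in 6 tumour libraries, cells of Naive 1, Naive 2, Naive 3, NKT-like, Dividing 1, Dividing 2 and Dividing 3 were left out. The 19239 cells of the other 6 clusters were kept, out of 41099 cells in the whole series. The kept clusters were Initial Activation, Intermediate Activation, Highest Activated, Activated Exhausted, Alternative Exhausted and the interferon-stimulated cluster.

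A223 is a mouse squamous cell carcinoma line, described as derived from C57BL/6, and it was injected into C57BL/6J mice. Tumours were taken from mice labelled Growing/Progressor (3 libraries) or Regressing/Regressor (3 libraries), digested with liberase and sorted for CD8 T cells before droplet sequencing. No further treatment, allele, age or time after injection is named for either state in the sources used here. Both states therefore share the tumour line, the host strain and the sort, and differ by the label of tumour outcome. The 2 libraries numbered 1 were made with a 3′ kit and the others with a 5′ kit. Nothing in the labels says whether a library came from 1 mouse or from a pool, so the spread between libraries may be partly technical.

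CD8 T cells that meet their antigen pass from a resting state into activation, divide, and take on killing functions. Where antigen persists, as it can in a tumour, they can pass into exhaustion, a state of inhibitory receptors and reduced function. Type I and type II interferons switch on a further set of genes, for which the authors' interferon-stimulated cluster is named. A phase call (G1, S or G2M) is read from each cell's transcripts: S phase is the time of DNA copying, G2M that of preparing for and carrying out mitosis.

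Regressing replicates 1, 2 and 3 gave 1432, 6260 and 6184 kept cells, and growing replicates 1, 2 and 3 gave 1271, 2932 and 1160. They held between 8189609 and 46250765 UMIs per library (UMIs count distinct RNA molecules). The lowest number of genes in a kept cell was 1124 and 1086 in the 3′ libraries of regressing and growing tumours, and 501 to 585 in the 5′ libraries. The highest mitochondrial share was 3.87% and 4.63% in the 3′ libraries and 9.04% to 9.83% in the 5′ ones. Of 19048 distinct cell barcodes, 190 occurred in more than 1 tumour library, and none of these carried the same named clonotype in each. Only barcodes whose cells all had a named clonotype could be compared so, and cells of the 3′ libraries had no receptor label. Levels of single genes were not analysed here, so the CD8 identity and the cluster names could not be set against marker genes.

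The kept clusters were a smaller part of growing tumours. Throughout, values are given in the order of replicates 1, 2 and 3 (2 and 3 where receptor labels are concerned). The kept share of all cells was 86.5%, 79.9% and 85.0% in regressing libraries, while growing libraries had 71.0%, 68.8% and 67.2%. Every growing library lay below every regressing one. The means were 69.0% ± 1.93 and 83.8% ± 3.45 (SD, n = 3 each), a difference of -14.8 percentage points. A two-sided exact permutation test gave p = 0.1, which is the lowest value that this design of 3 libraries a state can give, and the adjusted p was 0.3 over 3 joined classes. The difference was -14.5 in the 5′ libraries alone and 71.0% against 86.5% in the 3′ pair. Under limma on logit shares, which borrows the spread across the joined classes, the adjusted p was 0.0137. In each library most of the cells left out came from the Dividing clusters. In growing libraries these held 471, 881 and 463 of 1790, 4262 and 1727 cells. In regressing libraries they held 202, 1111 and 788 of 1655, 7832 and 7276 cells, a smaller part of each library.

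Interferon-stimulated cells were the smallest kept cluster in 6 of 6 libraries, and formed the only one of the 6 whose shares did not overlap between the states. Their share of kept cells was 7.05%, 7.04% and 7.71% in regressing libraries. It was 5.27%, 6.51% and 2.41% in growing libraries. Each growing library was thus lower than each regressing one, and growing replicate 3 lay far below the other two. That library had 28 such cells of 1160 (exact Clopper-Pearson 95% interval 1.61% to 3.47%, counting error only), and growing replicate 2 had 191 of 2932 (5.65% to 7.47%). The means were 4.73% ± 2.10 in growing and 7.27% ± 0.384 in regressing tumours (SD, n = 3 each; exact permutation p = 0.1, adjusted p = 0.6 over 6 clusters). Within the 5′ libraries the difference was -2.92 percentage points, and the 3′ pair stood at 5.27% against 7.05%. Leaving out growing replicate 3 gave -1.38 percentage points in place of -2.54. Over all 13 clusters of the whole tumour libraries, 30.8% had shares that did not overlap between the states, so 1 of 6 kept clusters was below that background. The 13 include the Dividing clusters, which together formed a larger part of growing libraries.

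**Figure D1:**
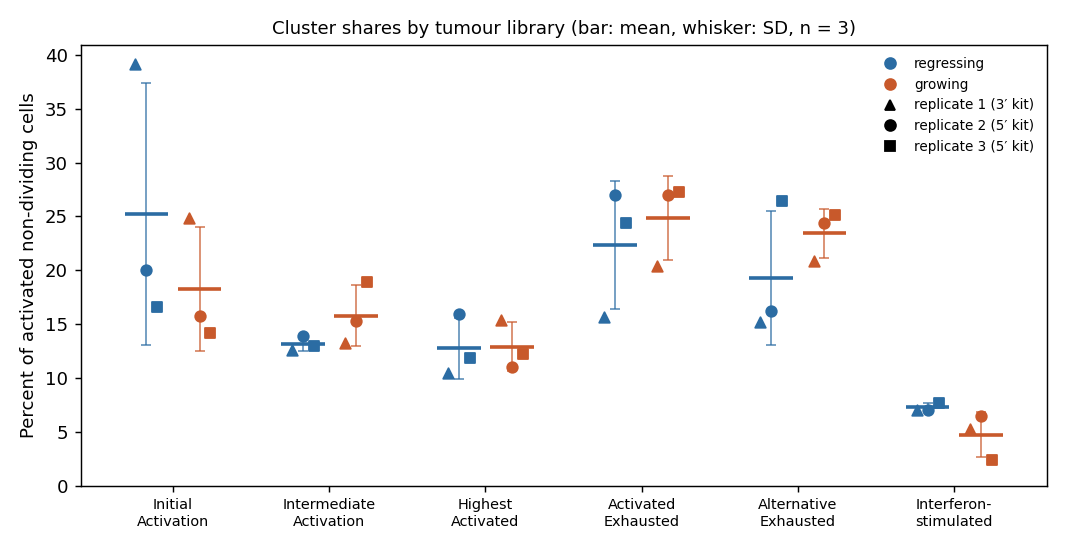
Share of each cluster among activated non-dividing cells in each tumour library (y axis, percent), by state (colour) and replicate (symbol), with the mean and SD of 3 libraries. The interferon-stimulated shares are the only ones that do not overlap, and regressing replicate 1 stands at 39.1% for Initial Activation.

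The exhausted clusters together showed a higher mean in growing tumours once dividing and naive cells were set aside, but the libraries overlapped. Regressing libraries had 30.8%, 43.1% and 50.8% of kept cells there, and growing libraries 41.2%, 51.4% and 52.3%. The means were 48.3% ± 6.15 and 41.6% ± 10.1 (SD, n = 3 each; exact permutation p = 0.5, adjusted p = 0.7). Regressing replicate 1 was the lowest of the 6 libraries, and leaving it out gave a difference of 1.31 percentage points in place of 6.71. Leaving out growing replicate 1 gave 10.3, and the 5′ libraries alone gave 4.85. Activated Exhausted averaged 24.9% ± 3.89 in growing and 22.3% ± 5.94 in regressing libraries, and Alternative Exhausted 23.4% ± 2.27 and 19.3% ± 6.23. The share of Activated Exhausted ran from 15.6% in regressing replicate 1 to 27.2% in growing replicate 3. Alternative Exhausted ran from 15.2% in regressing replicate 1 to 26.4% in regressing replicate 3, so regressing libraries held both ends of the range. Activated Exhausted cells outnumbered Alternative Exhausted cells by a log2 ratio of 0.74 in regressing replicate 2, while in the other 5 libraries the ratio lay between -0.11 and 0.15.

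The clusters named by degree of activation overlapped between the states. Initial Activation took 39.1%, 19.98% and 16.6% of kept cells in regressing tumours, against 24.9%, 15.8% and 14.1% in growing tumours. It was lower in the growing library in 3 of 3 same-numbered pairs, by 14.2, 4.19 and 2.45 percentage points, yet the states overlapped (exact permutation p = 0.5; exact sign-flip p = 0.25 over the pairs, the lowest that 3 pairs allow). The difference of -6.96 percentage points was -0.0238 without regressing replicate 1. Intermediate Activation took 12.6%, 13.9% and 13.001% in regressing tumours, against 13.2%, 15.3% and 18.9%, higher in growing in 3 of 3 pairs (exact permutation p = 0.2). The difference was 2.65 percentage points, and 1.103 with growing replicate 3 left out. Highest Activated took 10.5% to 16.0% in regressing and 11.1% to 15.4% in growing libraries, with means of 12.8% ± 2.85 and 12.9% ± 2.26 (exact permutation p = 0.9).

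Shares of 1 total depend on each other, so ratios between clusters were also taken within each library. Of the 15 pairs of kept clusters, 3 had log2 ratios that did not overlap between the states, against 58.3% of the 36 pairs among all clusters with 20 or more cells in every library (the kept 6 and the 3 Dividing clusters). The kept pairs were below that background. It also holds the pairs with a Dividing cluster, and those clusters formed a larger part of growing libraries. The background is therefore a poor scale for the kept pairs alone. All 3 set another cluster against the interferon-stimulated one. The log2 ratio of Alternative Exhausted to interferon-stimulated cells ran from 1.103 to 1.78 in regressing tumours and was 1.98, 1.90 and 3.38 in growing ones. For Activated Exhausted it was 1.15, 1.94 and 1.66 against 1.95, 2.05 and 3.50, and for Intermediate Activation 0.83, 0.98 and 0.75 against 1.33, 1.23 and 2.97 (exact permutation p = 0.1 and adjusted p = 0.5 over 15 pairs for each). The ratio to Initial Activation overlapped, at 2.47, 1.504 and 1.11 for Initial Activation over interferon-stimulated cells in regressing tumours, against 2.24, 1.28 and 2.55.

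Although no kept cell lay in a Dividing cluster, many of them carried a phase call of S, and each growing library had a lower share of them than each regressing one. Regressing libraries had 23.6%, 22.7% and 24.6% of kept cells called S, and growing libraries 18.7%, 20.7% and 19.1%. The states did not overlap, and the means were 23.6% ± 0.924 and 19.5% ± 1.08 (SD, n = 3 each; exact permutation p = 0.1, adjusted p = 0.35 over 21 phase values). G1 calls were correspondingly higher in every growing library, at 78.3%, 75.3% and 77.8% against 73.5%, 73.1% and 70.4% in the regressing ones. G2M calls were few and overlapped, at 3.34% ± 0.509 in growing and 4.01% ± 1.08 in regressing libraries (exact permutation p = 0.5). The S difference was -4.13 percentage points over all libraries and between -4.75 and -3.66 when each was left out in turn. It was -3.76 in the 5′ libraries alone, and 18.7% against 23.6% in the pair of 3′ libraries. Over all cells of each library the mean S difference was -0.083 percentage points. The S and G1 shares of kept cells therefore also depend on which S-called cells lay in Dividing clusters.

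Over whole tumour libraries the S share was nearly the same in both states, while the G2M share averaged 9.25% ± 0.639 in regressing and 14.7% ± 1.22 in growing tumours, without overlap (exact permutation p = 0.1, adjusted p = 0.175 over 14 values). All S calls made up 26.8% to 27.3% of cells in regressing and 26.9% to 27.0% in growing libraries. Of those calls, kept cells held 76.3%, 66.6% and 77.1% in regressing tumours, but 49.3%, 52.8% and 47.6% in growing tumours. The Dividing clusters held 24.1% ± 5.50 of the S calls in regressing and 46.2% ± 5.63 in growing tumours. Counted per 100 cells of a library, S calls in kept cells averaged 19.8 ± 1.46 in regressing and 13.5 ± 0.747 in growing tumours, and those in Dividing cells 6.53 ± 1.53 and 12.4 ± 1.49 (SD, n = 3 each). Neither measure overlapped between the states (exact permutation p = 0.1 each, adjusted p = 0.175 over 14 values). Of G2M calls, kept cells held 35.9% ± 7.18 in regressing and 15.8% ± 3.78 in growing tumours, without overlap (exact permutation p = 0.1, adjusted p = 0.175). Per 100 cells of a library, however, G2M calls in kept cells overlapped, at 2.48, 3.32 and 4.26 against 2.12, 2.70 and 2.08 (exact permutation p = 0.2, adjusted p = 0.311). G2M calls in Dividing cells averaged 5.48 ± 0.477 in regressing and 11.6 ± 1.88 in growing tumours on that scale, without overlap. Cells of the Dividing clusters mostly carried S or G2M calls (Dividing 1: 95.1% to 98.7% S) and formed a larger part of growing libraries. The splits of S and G2M calls between kept and Dividing cells thus in part restate the cluster sizes given above. With nearly equal S totals, the lower S share of kept cells in growing tumours is tied to the larger Dividing clusters. Whether kept cells differed in S calls apart from that division was not tested.

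**Figure D2:**
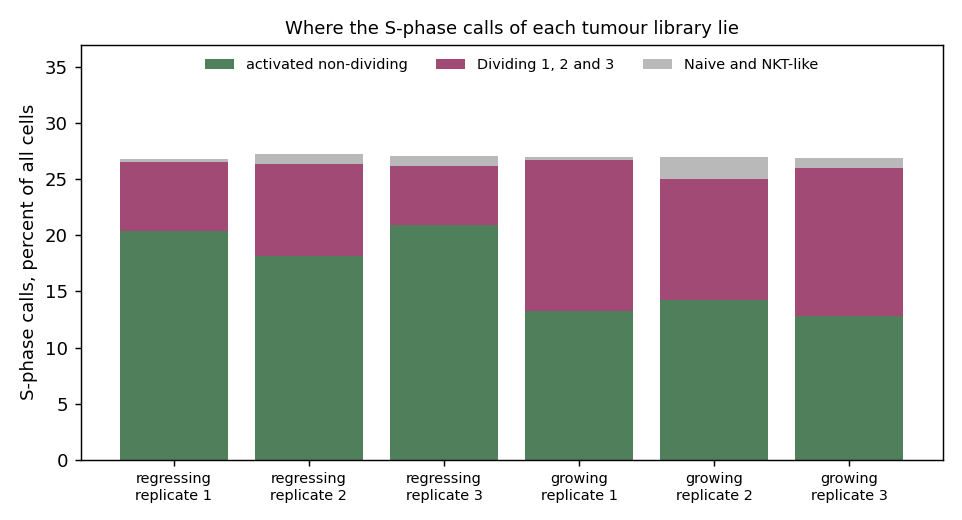
S-phase calls as a percent of all cells of each tumour library (y axis), stacked by the clusters that hold them. The stacks reach nearly the same height in all 6 libraries, while the part from activated non-dividing cells is 18.2 to 20.9 in regressing and 12.8 to 14.3 in growing libraries.

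Within single clusters the S shares of Alternative Exhausted and Initial Activation cells did not overlap between the states, while the largest mean difference, -4.45 percentage points in Activated Exhausted cells, came with overlap. Of the 18 phase shares within kept clusters, 4 did not overlap between the states. Over these and the 3 Dividing clusters, the 9 clusters with 20 or more cells in every library, 14.8% of 27 phase shares did not overlap, and those were the same 4. In Alternative Exhausted cells, S calls made up 17.5%, 16.6% and 19.2% in regressing tumours, against 13.2%, 13.99% and 14.1%. The G2M calls of that cluster were 2.76%, 2.57% and 3.67% against 0.755%, 1.40% and 2.41%, resting on 6, 26 and 60 cells and on 2, 10 and 7 cells. Its G1 calls were higher in every growing library, at 84.7% ± 1.27 against 79.2% ± 1.92 (SD, n = 3 each). In Initial Activation cells, S calls made up 32.9%, 34.2% and 38.5% in regressing tumours, against 29.7%, 32.4% and 30.5%. Initial Activation also had the highest G2M share in 6 of 6 libraries, at 4.29%, 9.83% and 12.9% against 8.54%, 12.3% and 6.10%, with overlap. Each of the 4 shares without overlap gave exact permutation p = 0.1 and adjusted p = 0.35. The S difference in Initial Activation was -4.31 percentage points, and -2.66 without regressing replicate 3. With the same mix of cells over 5 classes of UMIs in every library, the S difference was -2.39 in Initial Activation and -1.59 in Alternative Exhausted in place of -4.01, and the G2M difference in Alternative Exhausted was -0.167 in place of -1.48. All 3 then overlapped (exact permutation p = 0.5, 0.5 and 0.9). Within single clusters, however, a UMI class held as few as 2 cells in a library, so these weighted shares can rest on single calls. In growing replicate 3 the weighted G2M share of Alternative Exhausted was 4.68%, against 2.41% without weighting.

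The other clusters overlapped. S calls in Activated Exhausted cells were 18.8%, 22.8% and 26.8% in regressing tumours, against 15.4%, 20.6% and 19.0%, lower in 3 of 3 pairs (exact permutation p = 0.3). Highest Activated cells had 26.2% and 27.5% S calls in the 5′ libraries of growing tumours against 22.8% and 22.0% in those of regressing ones. In the 3′ pair the order was the opposite, at 17.9% in growing and 22.7% in regressing. Set against the other kept cells of the same library, S calls in Highest Activated cells differed by -1.30 ± 1.55 percentage points in regressing and 4.91 ± 5.42 in growing tumours, and a test of that contrast between states gave exact permutation p = 0.2 (adjusted p = 0.818 over 30 contrasts). The S share of interferon-stimulated cells was 16.7% ± 5.33 in regressing and 16.0% ± 3.81 in growing libraries, and that of Intermediate Activation cells 16.6% ± 3.002 and 14.4% ± 1.82.

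**Figure D3:**
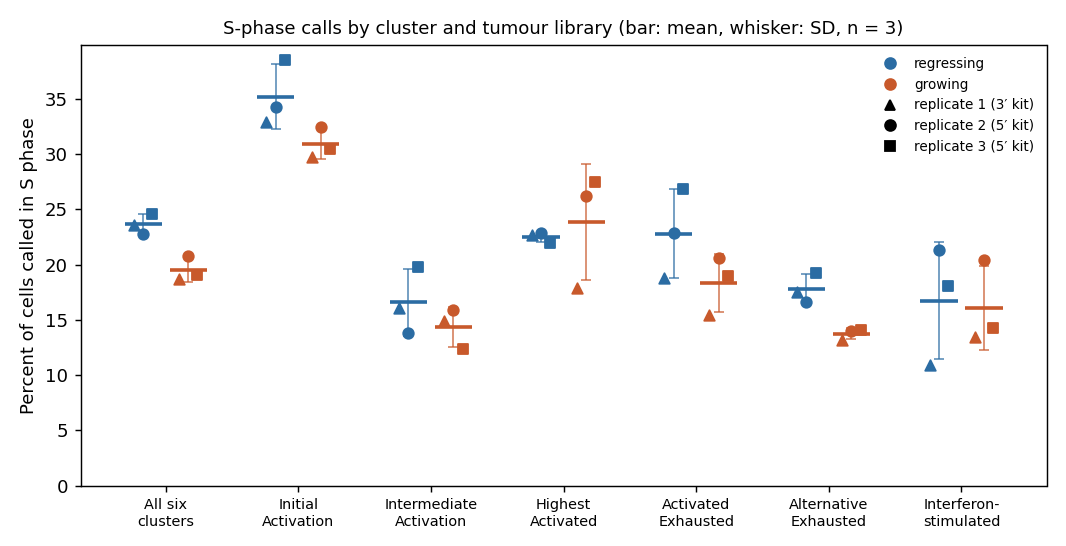
Percent of cells called in S phase (y axis) over all 6 kept clusters and within each, by state (colour) and replicate (symbol), with the mean and SD of 3 libraries. Initial Activation is highest in every library, and the states are apart for all kept cells, Initial Activation and Alternative Exhausted.

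Most of these S calls rested on low scores. A cell is called S when its S score exceeds both 0 and its G2M score, and the deposited call followed that rule in 100% of cells. The median S score of S calls in kept cells was 0.0223 to 0.0324 over the 6 libraries, against 0.229 to 0.268 for S calls in Dividing 1. Scores above 0.1 were found in 3.85% to 9.50% of S calls in kept cells and in 88.8% to 92.9% of those in Dividing 1. Cells with an S score above 0.1 made up 0.908%, 1.52% and 1.83% of kept cells in regressing tumours, against 1.18%, 1.67% and 1.81%. These overlapped (exact permutation p = 0.7), and the mean difference was 0.136 percentage points, at a threshold chosen after the data were examined. Among Highest Activated cells 4.94% and 4.22% passed it in growing replicates 2 and 3 against 1.90% and 1.64% in the regressing ones, and in the 3′ pair 2.04% against 2.67%. Median S scores of whole clusters separated the states in another set of clusters than the calls did. They were lower in growing for Initial Activation and Activated Exhausted and higher for Highest Activated, without overlap (exact permutation p = 0.1, adjusted p = 0.35, each). Alternative Exhausted, the remaining kept clusters and all kept cells overlapped.

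UMIs per cell had a higher mean in growing tumours as well, with overlap. Median UMIs per kept cell were 4994, 5242 and 6889 in regressing tumours, against 5680, 7352 and 11122 in growing ones. Growing replicate 3 was the highest library, while growing replicate 1 lay among the regressing ones. Medians averaged 8051 ± 2787 and 5709 ± 1030 (SD, n = 3 each). On the means of log2 medians the difference was 0.45, or 1.37-fold, and was 0.19 on the log2 scale without growing replicate 3 and 0.68 without growing replicate 1 (exact permutation p = 0.2, adjusted p = 0.525 over 21 medians). It was higher in the growing library in 3 of 3 same-numbered pairs, by 0.19, 0.49 and 0.69 on the log2 scale. With the replicate number as a block, limma called it (adjusted p = 0.00873), and without the block it did not (adjusted p = 0.27). With the block limma called the UMIs of each of the 6 clusters as well (adjusted p from 0.00873 to 0.0303), using 1 standard error of 0.124 for all 21 medians. The exact sign-flip p over the pairs was 0.25 for all kept cells and 5 clusters. It was 0.5 for Activated Exhausted cells, whose UMIs were lower in growing in pair 1, by -0.07 on the log2 scale. In the 5′ libraries alone the difference was 0.59 on the log2 scale. Dividing cells of the same libraries had 10446, 10137 and 12274 against 10739, 13570 and 18987 UMIs, 0.36 higher on the log2 scale in growing (exact permutation p = 0.2). Within a library the gap between kept and Dividing cells differed between states by 0.09 on the log2 scale (exact permutation p = 0.4). Depth of sequencing per cell and RNA per cell cannot be told apart in these counts.

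The clusters differed in UMIs within every library. Initial Activation cells had the fewest UMIs in 6 of 6 libraries, from 3511 in regressing replicate 2 to 7429 in growing replicate 3. Highest Activated cells had the most in 4 and Alternative Exhausted cells in 2. The highest cluster exceeded the lowest by 1.67 to 1.99 times within a library. Between states each cluster was 1.26 to 1.34 times higher in growing tumours on the log2 mean of medians. The exact permutation p was 0.2 or 0.3 for each cluster. In interferon-stimulated and Intermediate Activation cells the gap was smaller than in the other kept cells of the same library, by 0.12 and 0.13 on the log2 scale, without overlap between the states (exact permutation p = 0.1, adjusted p = 0.818 over 30 contrasts, each).

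**Figure D4:**
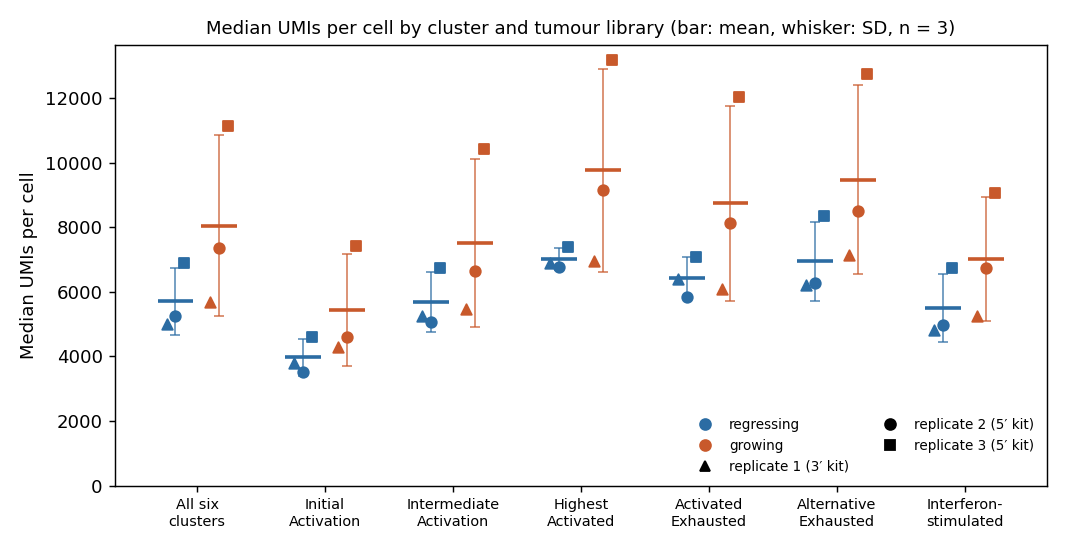
Median UMIs per cell (y axis) over all 6 kept clusters and within each, by state (colour) and replicate (symbol), with the mean and SD of 3 libraries. Growing replicate 3 is the highest library in every cluster, and growing replicate 1 lies near the regressing libraries.

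Numbers of genes followed UMIs. Median genes per kept cell were 1784, 1779 and 2196 in regressing tumours, against 1892, 2186 and 2909 (0.26 higher on the log2 scale in growing, exact permutation p = 0.3). When each library was given the same mix of cells over 5 classes of UMIs, the weighted median was 2148, 2127 and 2180 against 2118, 2135 and 2247, a 1.01-fold difference (exact permutation p = 0.9). Mitochondrial transcripts, whose share can climb in damaged cells, took a median of 1.80%, 1.98% and 1.75% of UMIs in regressing tumours, against 1.80%, 2.17% and 1.71% (exact permutation p = 0.8). Medians of all 18 combinations of cluster and measure (UMIs, genes, mitochondrial share) overlapped between the states, against a background of 3.70% without overlap over 27 such medians in the 9 larger clusters.

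The S share was higher in the lowest class of UMIs than in the fourth in 6 of 6 libraries. The 5 classes, cut at 4038, 5506, 7198 and 9920 UMIs, hold equal parts of all kept cells. In the lowest class 30.8%, 27.7% and 32.9% of cells were called S in regressing tumours, against 27.9%, 29.3% and 26.7%. In the fourth class the shares were 19.0%, 16.0% and 21.9% against 16.8%, 17.3% and 19.0%. The highest class had 25.0%, 22.5% and 15.1% against 23.5%, 17.6% and 16.9%, and no class separated the states. The lowest class held 30.4%, 30.3% and 14.1% of kept cells in regressing tumours, against 15.5%, 12.8% and 6.47%, with overlap. With the same mix over UMI classes in every library, S calls were 23.2% ± 1.61 in regressing and 21.5% ± 1.40 in growing tumours, a difference of -1.70 percentage points with overlap (exact permutation p = 0.2). With classes cut on UMIs divided by the median of the library it was -3.96, without overlap (exact permutation p = 0.1). With one common mix of clusters it was -3.03, with overlap (exact permutation p = 0.2).

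**Figure D5:**
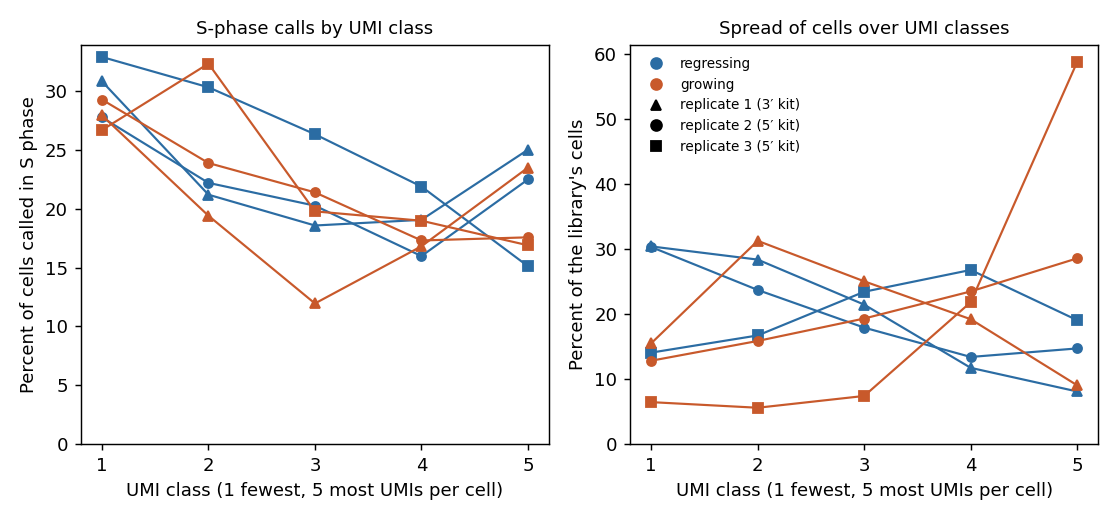
Percent of kept cells called in S phase (left y axis) and percent of each library's kept cells (right panel, y axis) in 5 classes of UMIs per cell, one line per library, by state (colour) and replicate (symbol). S calls are more frequent in class 1 than in class 4 in every library, and growing replicate 3 has 58.7% of its cells in class 5.

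Cluster shares also differed with the class of UMIs. With the same mix over UMI classes, the interferon-stimulated difference was -1.72 percentage points with overlap (exact permutation p = 0.2), and with UMIs divided by the library's median it was -2.52 without overlap (exact permutation p = 0.1). The exhausted difference was -0.634 percentage points with the same mix over UMI classes, in place of 6.71. Initial Activation stood at 1.14 in place of -6.96. Whether UMIs per cell account for these differences was not tested, since the clusters themselves differ in UMIs.

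T cell receptor labels, deposited for the 5′ libraries, covered a larger share of kept cells in each growing library than in each regressing one. A receptor library was also listed for regressing replicate 1, but the cells of that replicate carried no receptor label. Labels were present in 53.8% and 68.3% of kept cells in regressing tumours, against 77.8% and 79.1%. The exact permutation p was 0.3333, the lowest that 2 libraries a state allow, and the adjusted p was 0.75 over all receptor measures. Without regressing replicate 2 the difference of 17.4 percentage points was 10.2. By class of UMIs, from the lowest to the highest, the shares were 53.4% and 53.8% against 69.9% and 68.0% in the first, and 63.5% and 68.8% against 85.4% and 86.2% in the second. They were 65.1% and 74.0% against 89.4% and 87.2% in the third, and 57.5% and 74.6% against 90.3% and 90.5% in the fourth. In the fifth they overlapped, at 22.0% and 62.6% against 59.1% and 74.5%. The part of UMIs per cell in the difference was not tested. Among labelled kept cells, clonotypes that the authors named held 66.4% and 80.7% in regressing tumours, against 55.3% and 78.0%, with overlap (exact permutation p = 0.667, adjusted p = 0.968). Labelled kept cells numbered 3369 and 4221 in regressing and 2282 and 918 in growing tumours. How the authors chose which clonotypes to name was not examined. Shares of named clonotypes may therefore partly reflect that choice, which was not tested. The largest named clonotype of each library held 14.6% and 43.9% of labelled kept cells (493 and 1854 cells) against 16.4% and 15.9% (375 and 146 cells). Of its cells, 58.6% and 28.3% were Activated Exhausted in regressing tumours, against 50.4% and 31.5% in growing ones. Alternative Exhausted took 6.90% and 45.4% against 18.9% and 50.7%, so replicate 2 and replicate 3 differed more than the states did.

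Named clonotypes filled the clusters unequally. In Highest Activated cells they held 71.8% and 68.4% of labelled cells in regressing tumours, against 45.3% and 56.7%. In Initial Activation cells they held 63.4% and 54.1% against 25.4% and 53.5%, so regressing and growing replicate 3 were nearly alike. In Intermediate Activation cells they held 57.6% and 75.4% against 55.1% and 81.0%, and in interferon-stimulated cells 52.1% and 78.6% against 46.9% and 52.9%. In Activated Exhausted cells they held 77.9% and 88.6% against 64.5% and 88.7%, and in Alternative Exhausted cells 58.1% and 94.5% against 68.6% and 88.0%. The exact permutation p lay between 0.3333, the lowest possible, and 1.0 (adjusted p from 0.75 to 1.0). S calls made up 21.7% and 23.5% of named cells in regressing tumours, against 18.6% and 19.6%, and 20.3% and 24.9% against 22.7% and 20.8% of the other labelled cells. The difference between named and other cells in this respect was not tested.

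The same 6 clusters in spleen had another makeup. Intermediate Activation was the largest in each of the 3 spleen libraries, at 34.6% and 30.7% of 2191 and 2404 such cells in regressing replicates 2 and 3 and 49.1% of 1083 in growing replicate 3. S calls there were 22.0% and 22.96% in regressing and 17.9% in growing, and interferon-stimulated cells 10.5% and 10.9% against 6.74%. Median UMIs were 4973 and 6422 against 7686. With 1 growing spleen there was no test.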

How the data were processed

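Cells of CD8-sorted tumours were read in 6 expression libraries. Per the submitters' processing notes, reads were processed with Cell Ranger; no source used here gives its version, the genome build or how doublets were treated, and every deposited cell was taken as it stands. Per the file headers, the authors deposited for each cell an unnormalised UMI count, a gene count, the mitochondrial percent of a cell's UMIs, an S and a G2M score as Seurat names them, a phase call, a cluster name and receptor labels. Scores and clusters come from the same transcripts, so phase and cluster are not independent.

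Shares and medians were computed per library (Python 3.11.15, pandas 2.3.3) and compared between 3 growing and 3 regressing libraries by two-sided exact permutation tests, with Benjamini-Hochberg adjustment within each family and a threshold of 0.05. limma 3.58.1 was run on logit shares (0.5 added to each count) and log2 medians. Same-numbered libraries deviated together from their state's mean: the correlations over the 6 cluster shares were 0.867, 0.369 and 0.704, and over 21 log2 medians 0.291, 0.931 and 0.857; over 21 phase shares they were 0.559, 0.371 and -0.361. Some libraries of different number correlated as highly: growing 2 with regressing 3 (0.714) and growing 3 with regressing 2 (0.532) in shares, and growing 1 with regressing 2 (0.808) in medians. As every same-numbered pair exceeded 0.1 in shares and medians, the number was used as a block there. Blocked fits were also run for phase shares, although the pair numbered 3 stood at -0.361 in them. The number has no stated meaning in the labels beyond naming replicates. Number 1 went with the 3′ kit, however, and numbers 2 and 3 with the 5′ kit. Kit and number thus cannot be told apart for the pair numbered 1.

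The alternatives were each library left out, the 5′ libraries alone, blocks, limma, trimming 5% of cells at either end of UMIs, UMI classes, other bases, log ratios and common cluster mixes. The clusters, lists and tests were chosen with earlier results of these data known. All kept clusters are named, and clonotypes are given by share alone. The code was tested on simulated data with independent features, equal cell numbers and no effect of replicate number. The shares and medians here are few and depend on each other, so that test does not show how limma performs on them. The A223 variant tables hold no T cells and were not used here.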

Additional observations from a re-analysis of the deposited data

How the results depend on the processing

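The share of kept clusters in whole libraries, the S share, the G1 share and the median of UMIs kept their direction without each library in turn and in the 5′ libraries alone. Without each library in turn, differences (growing minus regressing, percentage points) ran from -1.12 to 1.74 for Highest Activated, from -0.826 to 4.84 for Activated Exhausted, from -9.02 to 1.33 for the activation clusters together, from -2.36 to 1.93 for G2M calls in Initial Activation, from -0.439 to 4.37 for S calls in Highest Activated, from -3.63 to 1.59 for S calls in interferon-stimulated cells, from 1.103 to 3.93 for Intermediate Activation, from 10.2 to 24.7 for cells with a receptor label, from -18.3 to 4.42 for named clonotypes and from -27.8 to 1.54 for the largest one; the log2 difference in mitochondrial share ran from -0.0685 to 0.102. Of 6 clusters, 1 to 4 were without overlap, and of 18 phase shares 4 to 7, against 1 and 4 over all libraries. Fewer libraries separate more easily, and no background over all clusters was computed for these settings. The 4 clusters came without growing replicate 1, and the 7 phase shares without it or without regressing replicate 1. In the 5′ libraries alone they numbered 4 and 10, with Highest Activated at -2.26. After trimming UMIs, 2 of 6 clusters were apart and Highest Activated was at -0.250.

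Under limma the share of kept clusters passed (-0.857 on the logit scale, adjusted p = 0.0137 and, with the replicate block, 0.00253), and median UMIs (0.45, log2) passed only with the block. The block also called G2M calls in Alternative Exhausted (adjusted p = 0.00678), although phase shares were not paired by number, and it called no other share or phase. That blocked fit used 1 standard error of 0.182 for all 21 phase values, while the growing shares in question rested on 2, 10 and 7 cells. Without the block limma gave these G2M calls an adjusted p of 0.259. On the logit scale G2M calls in Initial Activation were at 0.0700 and S calls in interferon-stimulated cells at 0.00394, with and without the block.

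With the same mix over UMI classes no cluster and no phase share (0 each) was apart. Initial Activation was then at 1.14, Highest Activated at -1.80, Activated Exhausted at -1.01, the exhausted clusters at -0.634, the activation clusters at 2.35, G2M calls at 0.736, G2M calls in Initial Activation at 2.11 and S calls in interferon-stimulated cells at 1.73. Weighted phase shares within clusters drew on UMI classes with as few as 2 cells in a library. With relative classes, S calls in Highest Activated were at -1.57. With all cells as the base, Intermediate Activation was at -0.144, Highest Activated at -1.71, Activated Exhausted at -1.50, Alternative Exhausted at -0.0242, G1 calls at -5.39 and G2M calls at 5.47. With Dividing cells added to the base, Highest Activated was at -1.58 and Activated Exhausted at -1.06. With scores above 0.1, an alternative chosen after the data were examined, S calls were at 0.136, G2M calls at 0.0644, and S calls in Initial Activation, Intermediate Activation and interferon-stimulated cells at 0.633, 0.168 and 3.05. With the same mix over clusters and UMI classes together, chosen likewise, G2M calls were at 0.682 and S calls at -1.10. The causes were not tested. Cells cannot be thinned to equal UMIs from per-cell totals, which limits each comparison of phases between libraries.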
